A study of Mus musculus with 32 samples.

Results

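Cilp and Cilp2 encode the cartilage intermediate layer proteins, a pair of related secreted glycoproteins of the extracellular matrix. Both genes were taken by name, from whichever of the series' 2 gene tables holds them, with 2544 genes in either table. The cartilage table of 1606 genes holds both, and the synovium table of 1178 genes holds Cilp. Cilp2 in synovium was not analysed here. The pair was proposed with earlier results of these data in view, and each table is itself a selected part of the genes, so both genes count as selected on their measured levels in these samples, and the levels below are a description.

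Cilp protein is known from the middle layers of articular cartilage, where it lies in the matrix between the cells. It is made as a precursor that is cut into an N-terminal and a C-terminal part, its own expression is raised by TGF-beta, and the protein binds TGF-beta1 and dampens its signalling. It has also been described as an antagonist of IGF1, a growth factor for chondrocytes. Cilp2 is a paralog in cartilage and neighbouring connective tissue whose function is less well known.

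RNA was sequenced from synovium, the lining and fat-rich tissue of the joint, and from cartilage of C57BL/6 mice. All groups share that strain, and no allele, transgene or agent is named in the labels used here, nor any age. Control mice were compared with MMS mice, the label's name for the model, at D3, D7 and D14 in both tissues and at D28 in cartilage, and with groups called R1 and R2. The labels used here spell out neither MMS nor R1 and R2 and give no unit to the D numbers, so these names are kept as given. Synovium had n = 3 in each of its 6 groups and cartilage n = 2 in each of its 7 groups. Whether replicates are separate or pooled animals is not stated, so p-values measure only the spread between these samples.

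Synovium values are FPKM, that is fragments scaled to transcript length and to library total. Cartilage values are a normalised signal of unstated unit, and levels are not compared across the tables. Sequencing depth is unknown, and the number of replicates limits the precision. Levels are mean ± SD over the n above, changes are differences of log2(value + 1) with their standard error, and each adjusted p-value is limma's, corrected across the whole table of that tissue. In synovium 98.0% of the genes differed at least 1.5-fold between the means of MMS D14 and Control, and in cartilage 99.0% did so between MMS D28 and Control. These 2 contrasts appear to have set the choice of genes, so they are given without a test. The other contrasts with Control share its samples with them. Other contrasts with MMS D14 in synovium, and with MMS D28 in cartilage, likewise share the samples of those groups. The median change of all genes against Control was -0.34, -0.65, -1.08, -0.38 and -0.38 in MMS D3, D7, D14, R1 and R2 of synovium, and -0.49 in MMS D28 and -0.19 in R1 of cartilage. In synovium, 5 libraries stood apart, the third replicate of every group but R1, where Gm2023 was at most 3.36 FPKM against at least 12.6 in the other 13. Cartilage markers were present in the cartilage samples (9 of 13 chondrocyte markers listed, none at 0). Neutrophil markers were also high there, with 8 genes summing to 22002 to 61245.

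Cilp lies on chromosome 9 at 65265180 to 65280605 (GRCm38, plus strand), with 10 exons in a coding transcript of 4153 bases. Cilp2 lies on chromosome 8 at 69880369 to 69887687 on the minus strand, with 8 exons and 4314 bases. Although the proteins are related, the longest exact run of bases shared by the coding transcripts was 14. The 250 bases before the Cilp start (RefSeq, GRCm38.p6, chr9:65264930-65265179, plus strand) are shown because Cilp moved in both tissues. Capitals mark a TATA-box-like run, TATANA searched on both strands, which starts 30 bases before the start.

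Cilp: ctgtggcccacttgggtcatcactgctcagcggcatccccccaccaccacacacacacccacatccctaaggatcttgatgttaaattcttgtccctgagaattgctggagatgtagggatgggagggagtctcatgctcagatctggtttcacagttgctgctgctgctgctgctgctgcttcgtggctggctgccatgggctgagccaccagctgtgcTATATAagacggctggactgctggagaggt

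Of all 32851 promoter windows of this length, 22.6% held that run on either strand. The Smad-binding motif CAGAC (42.2% of windows), the TEAD motif CATTCC (12.6%) and the SOX motif ACAANG (36.3%) were not found in the Cilp window on either strand. The Cilp2 window held CAGAC or its reverse complement at 2 places. It also held 1 match to TATANA, which starts 236 bases before the RefSeq start, and none to the TEAD and SOX motifs. All 250 bases of the Cilp2 window lie inside the first exon of the GENCODE coding transcript, so the sequence is not printed.

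In synovium Cilp was higher in every MMS and R group than in Control. The Control samples had 32.8, 26.6 and 21.8 FPKM. The MMS D3 samples had 140.6, 134 and 89.0, the MMS D7 samples 147, 178 and 171, and the MMS D14 samples 212, 187 and 228. No sample of these groups overlapped Control, and neither MMS D7 and MMS D3 nor MMS D14 and MMS D7 overlapped each other. Over all genes, all samples lay above Control in 16.5% for MMS D3, 24.8% for MMS D7 and 27.3% for MMS D14. For MMS D7 over MMS D3 the share was 13.3%, and for MMS D14 over MMS D7 it was 14.5%. The R1 samples had 138, 99.5 and 77.2 FPKM and the R2 samples 77.9, 70.1 and 69.6, all between the Control and the MMS D14 samples. All samples lay above Control in 21.8% of genes for R1 and 18.6% for R2, and below MMS D14 in 26% and 25%.

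**Figure D1:**
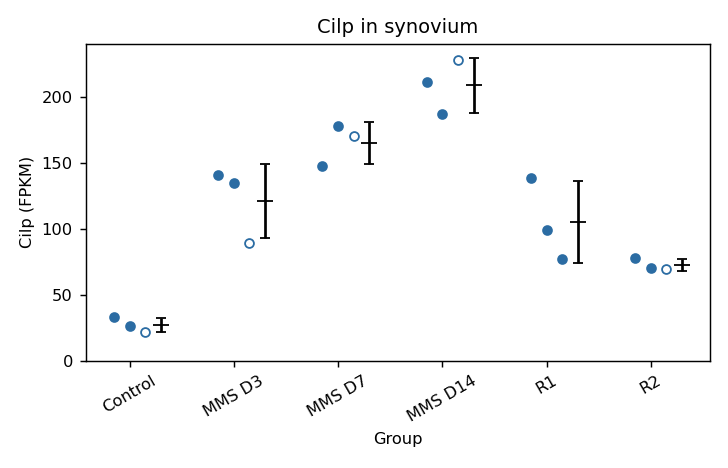
Cilp in synovium in FPKM (vertical axis) by group, with 1 point per sample, the 5 libraries that stand apart drawn open, and a bar for mean ± SD (n = 3). All MMS and R samples lie above the highest Control sample at 32.8 FPKM, and the MMS D14 samples lie above all others.

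Ordered by mean, Cilp went from 209 ± 20.9 FPKM in MMS D14 through 165 ± 15.9 in MMS D7, 121 ± 28.2 in MMS D3, 105 ± 31.0 in R1 and 72.5 ± 4.67 in R2 to 27.0 ± 5.53 in Control. The ranges of MMS D3 and R1 overlapped, as did those of R1 and R2, and no other neighbours in this order did. By mean FPKM Cilp ranked 444 of 1178 genes in Control and 50 in MMS D14.

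Against Control, Cilp rose 4.49-fold in MMS D3 (log2 change 2.12 ± 0.21, limma adjusted p = 1.36e-06), where 16.3% of all genes were called higher. It rose 6.12-fold in MMS D7 (log2 change 2.58 ± 0.21, limma adjusted p = 1.09e-07, with 24.1% of genes called higher). In MMS D14, the contrast with no test, the level was 7.73 times that of Control (log2 change 2.92 ± 0.21), and in 27.3% of genes all MMS D14 samples were above all Control samples. The steps between successive groups were smaller. From MMS D3 to MMS D7 the log2 change was 0.47 (95% interval 0.02 to 0.92, limma adjusted p = 0.0952, 12.1% of genes called higher). From MMS D7 to MMS D14 it was 0.34 (-0.11 to 0.78, limma adjusted p = 0.170, 12.6% called higher). Neither step passed the test as deposited, and both did with sample medians set equal (limma adjusted p = 0.0402 and 0.0444). The first step also passed without MMS D3 replicate 1 (limma adjusted p = 0.0459), and was 0.23 without the 5 libraries that stand apart (limma adjusted p = 0.462).

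R1 and R2 synovium held less Cilp than MMS D14 and more than Control. Against MMS D14, Cilp was lower by 1.02 on the log2 scale in R1 (limma adjusted p = 0.000398, 25.8% of genes called lower). In R2 it was lower by 1.51 (limma adjusted p = 1.70e-05, 25.5% called lower). These comparisons use the MMS D14 samples on which the genes appear to have been chosen. In R1 89% and in R2 88.5% of all genes were called in either direction. Relative to Control, Cilp was higher 3.88-fold in R1 (log2 change 1.90 ± 0.21, limma adjusted p = 1.14e-05, 15.9% of genes called higher). In R2 it was higher 2.68-fold (log2 change 1.41 ± 0.21, limma adjusted p = 0.000151, 15.7% called higher). R2 and R1 overlapped in range, and their difference of -0.49 (95% interval -0.94 to -0.04) did not pass (limma adjusted p = 0.968), running from -0.69 to -0.27 without single libraries. In that comparison limma called 0 genes, 0% of 1178, with 52 at an unadjusted p under 0.05.

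Other tissue components differed between the same samples. The summed FPKM of the 9 adipocyte markers was 26396 to 31832 in Control, 4613 to 7430 in MMS D14 and 13026 to 14967 over R1 and R2. The 3 measured fibroblast collagen markers (Col1a1, Col1a2 and Col3a1) summed to 2029 to 2296 in Control and 11150 to 13130 in MMS D14. On average that sum was 5.64 times Control in MMS D14, 2.03 times in R1 and 2.29 times in R2, against 7.73, 3.88 and 2.68 for Cilp. The 5 tendon and ligament markers (Scx, Tnmd, Thbs4, Fmod and Tnc) summed to 38.3 to 48.6 in Control, 789 to 1085 in MMS D14, 111 to 266 in R1 and 142 to 163 in R2. The 5 bone markers, Col1a1 among them, were together 6.50 times Control in MMS D14. Their median log2 change there was -0.65, against -1.08 for all genes, so this sum does not stand for each marker. The chondrocyte markers Comp and Sox9 together were 3.21 times Control in MMS D14, and none of the other 11 chondrocyte markers is in the synovium table. The 4 measured synovial lining markers summed to 600 to 769 in Control and 327 to 419 in MMS D14. That sum was 1097 to 1391 in R1 and 909 to 1870 in R2. Taken singly, 2 of the 4 were called higher than Control in each of R1 and R2, beside 15.9% and 15.7% of all genes. In bulk tissue, fewer cells of a type and less RNA per cell cannot be told apart, and the part of these markers in the Cilp difference was not tested.

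Around Cilp, the TGF-beta genes were taken as a list, because TGF-beta1 is both its inducer and its binding partner. Of 30 ligands, receptors and signalling genes 5 were measured in synovium. Inhba, an activin subunit, rose in MMS D7 and R2 (log2 change 0.89 and 0.81). Inhbb, another activin subunit, fell by 0.46, 0.62, 0.81 and 0.62 in MMS D3, MMS D7, R1 and R2. Ltbp1, which stores latent TGF-beta in the matrix, rose by 0.35 in MMS D3, 0.97 in MMS D7 and 0.34 in R2. Ltbp2, a related fibrillar protein, rose by 1.42 and 1.61 in MMS D3 and D7. Fst, the activin inhibitor follistatin, fell by 1.56 in MMS D7. Of the 5, 2 rose in MMS D3, 3 in MMS D7, 0 in R1 and 2 in R2, beside 16.3%, 24.1%, 15.9% and 15.7% of all genes. In the same groups 1, 2, 1 and 1 fell, beside 39.6%, 61.6%, 45.2% and 45.1%, so the falls are no result about these genes. The Inhbb fall in MMS D7 was near the median change of all genes there, -0.65.

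Of the 18 measured TGF-beta induced genes, 13 rose in MMS D3, 15 in MMS D7, 13 in R1 and 13 in R2 against Control, and 0 fell. Of all genes 16.3%, 24.1%, 15.9% and 15.7% rose. Their median log2 change was 0.92, 1.83, 0.87 and 1.04, beside the negative medians of all genes given above. Among them, Lox, a collagen cross-linking enzyme, rose from 17.2 ± 2.14 to 170.2 ± 28.6 FPKM in MMS D3. Postn, which encodes periostin, was 317 ± 44.9 in R2 against 78.3 ± 6.13 in Control, a rise with a limma adjusted p of 0.000123. Against MMS D14, on whose samples the choice of genes appears to rest, 15 of the 18 fell in R1 and 16 in R2 (25.8% and 25.5% of all genes). Ctgf, a matricellular protein, rose there by 1.38 and 1.34 and was picked out after its values were seen. Some other matrix genes of cartilage and fibrous tissue were also in the synovium table, 7 of 34 listed. Of these 3 rose in MMS D3 and 6 in each of MMS D7, R1 and R2, beside the shares of all genes just given. Thbs4, a matricellular thrombospondin, was at 157 ± 55.2 FPKM in MMS D7 and 59.8 ± 5.83 in R2 against 16.0 ± 3.43 in Control (15.95 before rounding). Comp, which binds several matrix collagens, was at 443 ± 71.9 in MMS D7 and 168 ± 9.80 in Control.

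In cartilage both genes were lower in the later MMS groups, opposite to Cilp in synovium. Cilp was 1881 and 1393 in the Control samples and 1757 and 1565 in MMS D3. It was 555 and 931 in MMS D7, 421 and 343 in MMS D14, and 495 and 419 in MMS D28. The MMS D3 samples lay within the Control range, while all samples of MMS D7, D14 and D28 lay below both. The same held for 35.2%, 40% and 55.1% of all genes in these groups. In R1 Cilp was 1044 and 1162, on average 0.674 of Control and below both Control samples, as for 51% of all genes. In R2 it was 1006 and 1536, which overlapped Control.

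Cilp2 was 186 and 151 in the Control samples, 98.8 and 113 in MMS D3, and 46.9 and 79.2 in MMS D7. It was 11.9 and 14.7 in MMS D14 and 18.7 and 24.7 in MMS D28. Every MMS sample lay below both Control samples, and those of MMS D14 were the lowest. In R1 Cilp2 was 97.6 and 76.8, below Control as for 51% of all genes. In R2 it was 126 and 159, overlapping Control.

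**Figure D2:**
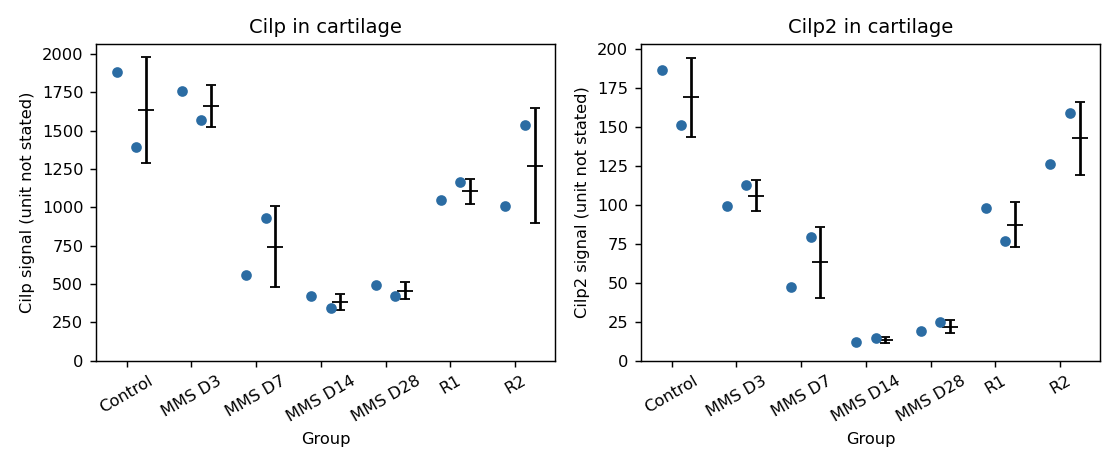
Cilp (left) and Cilp2 (right) in cartilage, as the deposited normalised signal of unstated unit, by group, with 1 point per sample and a bar for mean ± SD (n = 2). Cilp in MMS D3 stays between the Control samples while Cilp2 is already below them, and both are lowest in MMS D14, at 382 and 13.3 on average.

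Ordered by mean, Cilp was highest in MMS D3 (1661 ± 135), Control (1637 ± 345), R2 (1271 ± 375) and R1 (1103 ± 83.5), whose neighbouring ranges all overlapped. MMS D7 (743 ± 266) lay below R1, and MMS D28 (457 ± 53.9) below MMS D7, without overlap. MMS D28 and MMS D14 (382 ± 54.9) overlapped. For Cilp2 the order was Control (169 ± 25.1), R2 (142 ± 23.3), MMS D3 (106 ± 9.77), R1 (87.2 ± 14.7), MMS D7 (63.0 ± 22.8), MMS D28 (21.7 ± 4.26) and MMS D14 (13.3 ± 2.01). There the neighbours that overlapped were Control with R2 and R1 with MMS D7.

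Against Control, Cilp in MMS D3 did not differ past the test (log2 change 0.04, 95% interval -0.54 to 0.61, limma adjusted p = 0.946), where 12.9% of genes were called higher. Its sign turned with centring and without single libraries. Cilp2 in MMS D3 was at -0.66 (95% interval -1.19 to -0.14) and narrowly missed the test (limma adjusted p = 0.0635), with 11% of genes called lower. With only the 2 groups in the fit it passed (limma adjusted p = 0.00906).

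In MMS D7, where 15.6% of genes were called lower, Cilp fell by 1.17 ± 0.27 (limma adjusted p = 0.00782) and Cilp2 by 1.45 ± 0.24 (limma adjusted p = 0.00113) on the log2 scale. The call for Cilp ended without Control replicate 1 (limma adjusted p = 0.0773) and without MMS D7 replicate 1 (limma adjusted p = 0.0819). In MMS D14 Cilp fell 4.28-fold (log2 change -2.09 ± 0.27, limma adjusted p = 7.87e-05) and Cilp2 fell 12.7-fold (log2 change -3.57 ± 0.24, limma adjusted p = 1.80e-06), with 28% of genes called lower. Both of those calls held without any one library. The Cilp2 change had rank 2 among the falls of 1606 genes. In MMS D28, the contrast with no test, the Control level was 3.58 times that of Cilp (log2 change -1.83 ± 0.27) and 7.78 times that of Cilp2 (log2 change -2.91 ± 0.24). In that contrast all MMS D28 samples were below all Control samples for 55.1% of genes.

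The sizes of the steps between MMS groups use no Control values, nor, up to MMS D14, MMS D28 values, but their tests share the spread of all groups. From MMS D3 to MMS D7, where 14.1% of genes were called lower, Cilp fell by 1.20 (limma adjusted p = 0.00985) and Cilp2 fell by 0.78 (limma adjusted p = 0.0444). Both calls ended without MMS D3 replicate 1 (limma adjusted p = 0.0682 and 0.112), MMS D3 replicate 2 (0.0572 and 0.234) or MMS D7 replicate 1 (0.0891 and 0.287), and that for Cilp2 also with centring (0.105). Without MMS D7 replicate 1 the steps were -0.83 and -0.41. From MMS D7 to MMS D14 Cilp2 fell 4.74-fold (log2 change -2.12 ± 0.24, limma adjusted p = 0.00189), the second largest fall of 1606 genes, with 7.66% called lower. Cilp fell by 0.92 ± 0.27 (limma adjusted p = 0.0383). The Cilp call ended without MMS D7 replicate 2 (log2 change -0.55, limma adjusted p = 0.335), MMS D14 replicate 1 (limma adjusted p = 0.0739) or MMS D14 replicate 2 (0.219), and the Cilp2 call did not. From MMS D14 to MMS D28, with 5.79% of genes called higher, neither passed. Cilp was at 0.26 (95% interval -0.32 to 0.84, limma adjusted p = 0.451, and 0.11 to 0.41 without single libraries) and Cilp2 at 0.66 (0.14 to 1.19, limma adjusted p = 0.0652).

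R1 and R2 cartilage held more of both transcripts than MMS D14. In R1, where 8.28% of genes were called higher, Cilp rose 2.89-fold (log2 change 1.53 ± 0.27, limma adjusted p = 0.00252) and Cilp2 rose 6.56-fold (log2 change 2.62 ± 0.24, limma adjusted p = 0.000179). In R2, with 19.8% called higher, Cilp rose 3.33-fold (log2 change 1.71 ± 0.27, limma adjusted p = 0.000394) and Cilp2 rose 10.7-fold (log2 change 3.33 ± 0.24, limma adjusted p = 1.94e-06). Cilp2 had rank 1 among the rises of the 1606 genes in both comparisons. These 4 calls held under every alternative tried, leaving out single libraries included. The comparisons with MMS D14 share its samples.

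Against Control, R1 cartilage had Cilp2 lower by 0.95 ± 0.24 (limma adjusted p = 0.00722, 33.3% of genes called lower). That call ended without Control replicate 1 (limma adjusted p = 0.0561) or R1 replicate 2 (0.0575). Cilp in R1 did not pass (log2 change -0.55, 95% interval -1.13 to 0.02, limma adjusted p = 0.0775), but did with only the 2 groups in the fit (0.0206). In R2, where 0.685% of genes were called lower, Cilp was at -0.38 (-0.96 to 0.20, limma adjusted p = 0.478) and Cilp2 at -0.24 (-0.77 to 0.28, limma adjusted p = 0.603). Without single libraries these ran from -0.69 to -0.08 and from -0.41 to -0.08, and Cilp in R1 from -0.77 to -0.34. Between R2 and R1, with 13.2% of genes called higher, Cilp differed by 0.17 (-0.40 to 0.75, limma adjusted p = 0.599). Cilp2 was higher in R2 than in R1 by 0.70 ± 0.24 (limma adjusted p = 0.0405). The latter call ended without any 1 of the 4 libraries (limma adjusted p = 0.0746 to 0.219) and with centring (0.0545).

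**Figure D3:**
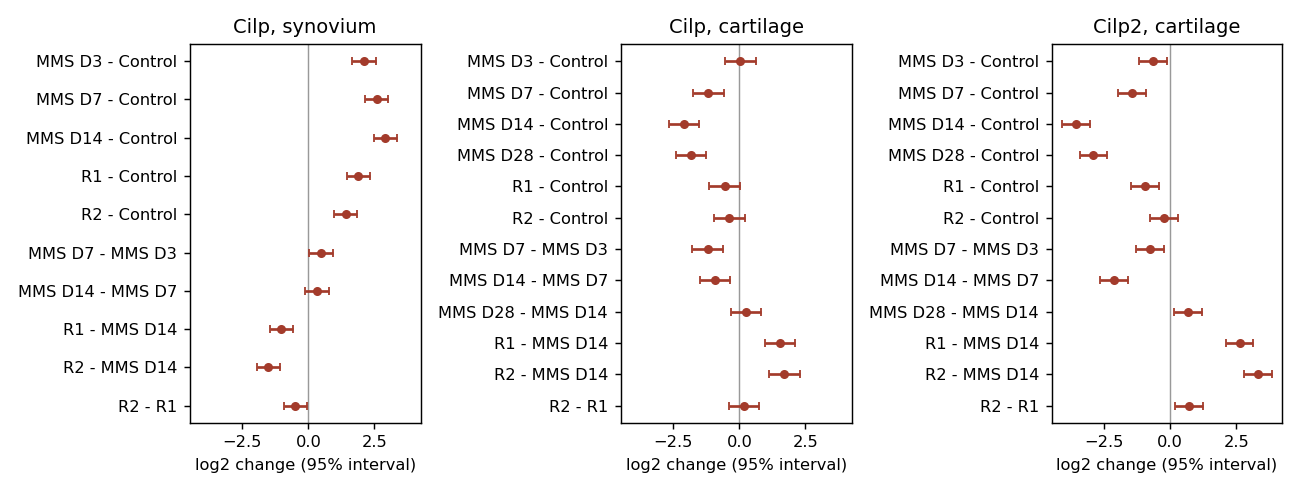
Log2 changes of value plus 1 with 95% intervals from limma (horizontal axis) for each comparison, written as group minus reference, for Cilp in synovium, Cilp in cartilage and Cilp2 in cartilage. Changes against Control are positive in synovium, from 1.41 to 2.92, and reach -3.57 for Cilp2 in cartilage, while in each tissue R1 and R2 minus MMS D14 have the opposite sign to MMS D14 minus Control.

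The balance of the 2 transcripts within a cartilage sample was taken as the ratio of their signals. The ratio of the Cilp to the Cilp2 signal was 10.1 and 9.23 in the Control samples, 17.8 and 13.9 in MMS D3, and 11.8 in both MMS D7 samples. It was 35.5 and 23.3 in MMS D14 and 26.5 and 17.0 in MMS D28. All 8 MMS samples lay above both Control samples, and MMS D14 was highest at 29.4 ± 8.58. In R1 the ratio was 10.7 and 15.1, and in R2 it was 7.98 and 9.67, the second within the Control range. With 2 samples against 2, a two-sided exact permutation test cannot go below p = 0.333, so these ratios have no test. The unit being unstated, the ratio says nothing of which transcript is more abundant.

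**Figure D4:**
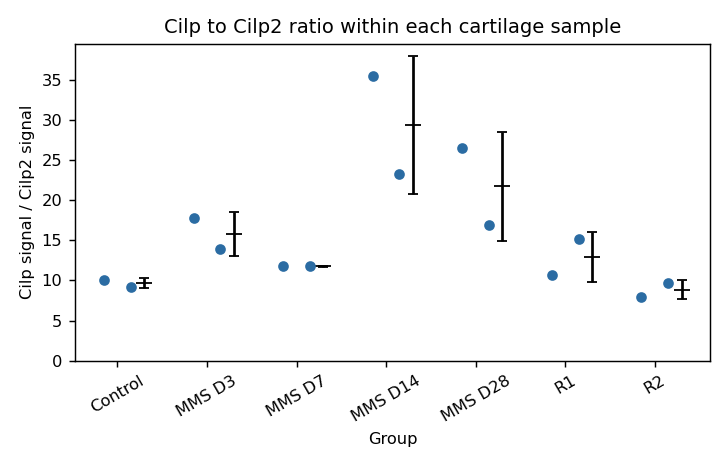
Ratio of the Cilp to the Cilp2 signal within each cartilage sample (vertical axis) by group, with 1 point per sample and a bar for mean ± SD (n = 2). The MMS D14 samples, at 35.5 and 23.3, have the highest mean, 29.4, and the R2 samples lie near the Control samples at 10.1 and 9.23.

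Markers of several cell types moved in the same cartilage samples. The 9 chondrocyte markers summed to 10056 to 13379 in Control, 14485 to 15155 in MMS D3 and 3503 to 3793 in MMS D14. On average the Control sum was 3.21 times that of MMS D14, or 2.02 times without Chad, its most abundant gene, against 4.28 for Cilp and 12.7 for Cilp2. The MMS D3 sum was on average 1.26 times Control, or 0.998 times without Chad. In MMS D7 the marker sum was 0.821 of Control, or 0.911 without Chad, where Cilp was at 0.454 and Cilp2 at 0.374. The 7 B cell markers summed to 647 to 690 in Control, 207 to 225 in MMS D14 and 838 to 855 in R2. The sum of the 8 neutrophil markers was on average 1.32 times Control in MMS D14 and 1.83 times in R1, and that of the 4 fibroblast markers 5.42 times in MMS D14. The 8 bone markers were at 0.759 of Control in MMS D14. Taken singly in MMS D14 against Control, 1 of 4 fibroblast and 1 of 8 neutrophil markers were called higher, beside 25.5% of all genes. The median log2 change of the fibroblast markers was 0.91. Of the chondrocyte markers 6 of 9 and of the B cell markers 6 of 7 were called lower, beside 28% of all genes, and 0 of 8 bone markers were called. The part of these cell types in the Cilp and Cilp2 differences was not tested.

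Of 34 listed cartilage and fibrocartilage matrix genes 24 were measured in cartilage. Against Control 2 rose and 2 fell in MMS D3, 5 fell in MMS D7, and 18 fell and 1 rose in MMS D14. Of all genes 12.9% rose and 11% fell in MMS D3 and 15.6% fell in MMS D7, so those counts were near or below the share of all genes. In MMS D14 28% of all genes fell and 25.5% rose. Their median log2 change in MMS D14 was -1.09, against 0.03 for all genes. Chad, a matrix protein that binds collagen and integrins, fell from 8691 ± 1778 to 2153 ± 93.7 in MMS D14 (log2 change -2.0). Ucma, a secreted protein of chondrocytes, fell from 96.8 ± 0.863 to 17.4 ± 2.31 (log2 change -2.41). Aspn, a small leucine-rich proteoglycan gene, was the member that rose, by 2.75, and it was picked out after its value was seen. In R1 6 of the 24 were lower than Control, a smaller share than the 33.3% of all genes, and in R2 0 were called (0.685% of all genes lower), with a median of -0.19 against 0.02 for all genes. Against MMS D14, 10 of 24 rose in R1 and 14 in R2 (8.28% and 19.8% of all genes), and 0 fell, with Chad at 5772 ± 58.8 in R1 and 6405 ± 982 in R2.

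Of 7 measured ligands, receptors and signalling genes, 2 rose and 1 fell in MMS D14 against Control, where 25.5% of all genes rose and 28% fell, so the count is no result about these genes. Inhba rose by 1.04 and Acvrl1, a type I receptor, by 0.78, while Bambi, a decoy receptor, fell by 0.40. Tgfb2, the ligand in the table, was at 0.13 in MMS D14 and did not pass the test, and it fell by 0.61 in R1. Of 9 measured TGF-beta induced genes 6 rose and 2 fell in MMS D14, among them Tgfbi, a secreted collagen-binding protein, from 54.9 ± 7.54 to 140 ± 10.3 (139.9 before rounding). The 2 that fell were Ctgf and Comp, the latter also a cartilage matrix gene.

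The IGF axis had 2 measured genes of 19 in cartilage. Igf1, the growth factor, rose by 0.96 in MMS D14, and Igfbp5, which binds it, fell by 0.67. Of 6 measured pyrophosphate and phosphate genes, 1 rose, 2 fell and 3 were not called in MMS D14. There 25.5% of all genes rose and 28% fell, so the count is no result about these genes. Panx3, a channel of the ATP release pathway, rose by 2.40 in MMS D14. Mgp, an inhibitor of calcification, fell by 1.04, and Enpp2, a secreted phosphodiesterase, by 0.46. Enpp1, which makes pyrophosphate, was at -0.21 and Ank, which exports it, at 0.04, and neither passed.

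Among the genes most like Cilp in synovium, by Pearson's r of log2(value + 1) over the 18 samples, were Fxyd6 (r = 0.98), Sdc1 (0.94), Fkbp10 (0.94) and C1qtnf6 (0.94). Fxyd6, a regulator of the sodium pump, went from 16.3 ± 3.62 FPKM in Control to 99.6 ± 12.6 in MMS D14 and 38.9 ± 5.19 in R2. In cartilage, over 14 samples, those most like Cilp were Chst5 (r = 0.98), Ucma (0.97), Clec3a (0.97), Hs3st3a1 (0.96) and Meltf (0.96). Clec3a, a lectin-domain protein of cartilage, went from 1534 ± 275 in Control to 471 ± 106 in MMS D14 and 1405 ± 168 in R2. For Cilp2 they were Gas1 (0.97), Aff3 (0.97), Snorc (0.96), Sfrp5 (0.96) and Clec3a (0.95). Gas1, a membrane protein that modulates hedgehog signalling, had 208 ± 36.5 in Control, 140 ± 6.72 in MMS D3 (139.7 before rounding) and 46.0 ± 3.59 in MMS D14. The 2 members correlated with each other at 0.94, which ranked 17 among all genes for Cilp and 11 for Cilp2. These values share libraries and groups and are given as a description.

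**Figure D5:**
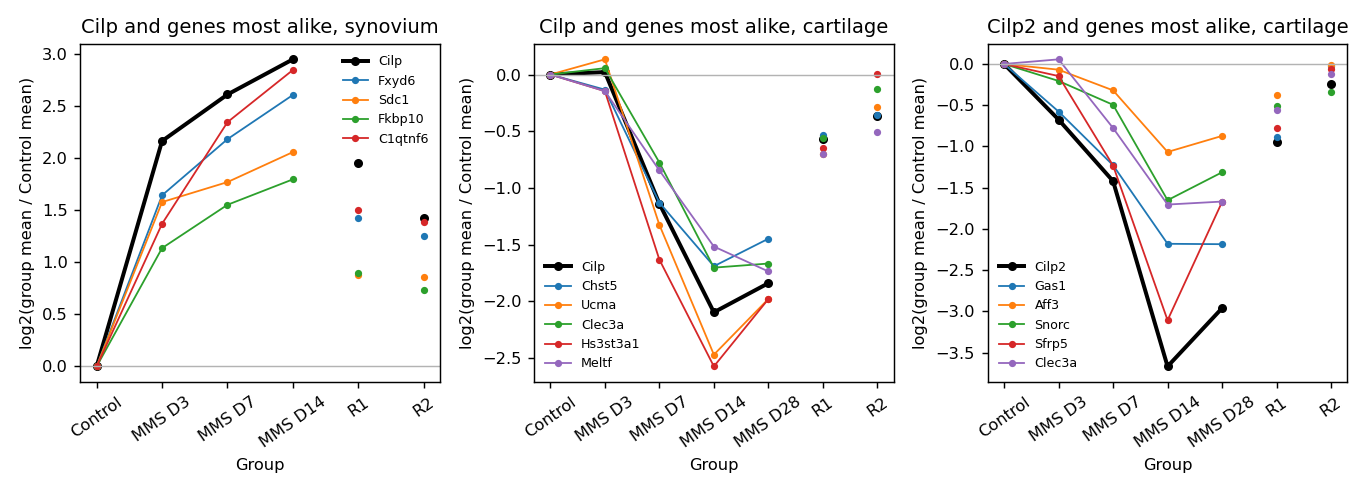
Group means as log2 of the ratio to Control (vertical axis) by group for Cilp in synovium, Cilp in cartilage and Cilp2 in cartilage (black) and genes most correlated with each (colours), with lines through Control and the MMS groups. All 5 genes of the left panel lie above 0 in every MMS and R group, and all 6 of the right panel are below 0 in MMS D14, where Cilp2 is lowest.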

How the data were processed

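RNA was extracted with Trizol and libraries followed BGI protocols, per the labels' protocols. HISAT2 and mm10 are named, per the submitters' processing notes, and the counter, the annotation and the rule that selected the genes are not given in the sources used here. The synovium table holds FPKM, per the file headers, and the deposited cartilage table holds normalised signal in a unit that no source names. Neither table gives total reads. Columns were matched to samples by title, with 0 columns unused.

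Values were taken as log2(value + 1) without further normalisation. Requiring a value of at least 1 in n samples, n being the group size, removed 0 genes. The groups of a tissue entered a single limma model (limma 3.58.1, R 4.3.3, variance trend on), from which came 10 comparisons in synovium and 12 in cartilage. The Benjamini-Hochberg correction ran across the genes of a table, and an adjusted p under 0.05 was called. The fit was tested on simulated data. Gene positions came from GENCODE M21 and promoters from RefSeq. Plots used Python 3.11.15 and matplotlib 3.10.9.

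The members and gene lists were chosen with earlier results of these data known. Beside Cilp and Cilp2, the text names for each the 5 genes with the highest correlation, leaving out predicted models and 1 gene that is not reported here. From each gene list it names up to 4 members with the highest level, up to 4 with the smallest adjusted p, and any member of a list of 8 or fewer. Alternatives were centring, a pseudocount of 0.1, no filter, a mean of at least 10, no trend, the replicate number as a block, the 2 groups alone and leaving out each library. The 5 synovium libraries that stand apart were left out, or given a term, after seeing the data.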

Additional observations from a re-analysis of the deposited data

Results flagged for a closer look

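In MMS D7, MMS D14 and R1, Cilp lay on opposite sides of Control in the 2 tissues, with no overlap between the samples of either group and Control. In synovium all samples lay above Control for 24.8%, 27.3% and 21.8% of all genes in these groups. In cartilage all samples lay below Control for 35.2%, 40% and 51%, so non-overlap alone was common there. The difference between tissues was not tested, since the tables were normalised separately. In MMS D7 the log2 change was 2.58 in synovium and -1.17 in cartilage. In MMS D14 it was 2.92 and -2.09, and in R1 it was 1.90 and -0.55, the last of which did not pass its own test.

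In cartilage the change against Control differed between successive MMS groups, which is the same limma test as for the steps above, since Control cancels. Between MMS D3 and MMS D7 it differed by -1.20 for Cilp and -0.78 for Cilp2, and between MMS D7 and MMS D14 by -0.92 for Cilp and -2.12 for Cilp2. Of these 4, the Cilp2 difference between MMS D7 and MMS D14 was the one that kept its call without each library in turn.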

How the results depend on the processing

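Under all alternatives run, calls were the same for Cilp in R1 and R2 against Control and MMS D14 in synovium, and for both genes in cartilage MMS D14 against Control and R1 and R2 against MMS D14. Centring gave 3.44 for Cilp in synovium MMS D14 against Control, and made the synovium steps to MMS D7 (0.62) and to MMS D14 (0.58) and the Cilp2 step from MMS D14 to MMS D28 (0.75) pass. With centring Cilp2 no longer passed from MMS D3 to MMS D7 (-0.63) or from R1 to R2 (0.63), and Cilp in cartilage MMS D3 turned to -0.0089. With only the 2 groups fitted, Cilp2 in MMS D3 (-0.66) and from MMS D14 to MMS D28 (0.66) and Cilp in R1 (-0.55) passed. In cartilage, replicate numbers did not pair the samples (12 of 42 same-numbered pairs correlated over 0.1, and 0 of 14 samples were closest to their own number). In synovium they partly did (26 of 45 pairs, and 11 of 18 samples). The median r there was 0.13 for the same number and -0.07 for other numbers. With the replicate number as a block, no Cilp call in synovium changed. In cartilage with that block, Cilp from MMS D7 to MMS D14 stayed at -0.92 without passing. Genes called in cartilage went from 12 to 1 in R2 against Control and from 272 to 177 from MMS D7 to MMS D14.

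Without single libraries the log2 change ran from 0.26 to 0.59 for Cilp in synovium MMS D7 against MMS D3. In cartilage Cilp ran from -0.18 to 0.25 in MMS D3 (-0.18 without Control replicate 2, -0.05 without MMS D3 replicate 1), from -1.54 to -0.80 in MMS D7, from -1.58 to -0.83 from MMS D3 to MMS D7, from -1.29 to -0.55 from MMS D7 to MMS D14 and from -0.13 to 0.48 from R1 to R2. Cilp2 ran from -1.12 to -0.77 in R1, from -1.15 to -0.41 from MMS D3 to MMS D7 and from 0.53 to 0.87 from R1 to R2. A lone sample was taken to vary like other groups. The cause was not tested.

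A mean of at least 10 left fewer genes, by construction. In synovium calls went from 659 to 436 in MMS D3, 1010 to 657 in MMS D7, 1142 to 721 in MMS D14, and against MMS D14 from 1049 to 675 in R1 and 1042 to 670 in R2. In cartilage they went from 383 to 166 in MMS D3, 359 to 159 in MMS D7, 859 to 456 in MMS D14, 1563 to 752 in MMS D28 and 1112 to 626 in R1. Between cartilage groups they went from 271 to 135 (MMS D3 to MMS D7), 351 to 151 (MMS D14 to MMS D28), 290 to 162 (MMS D14 to R1), 573 to 306 (MMS D14 to R2) and 571 to 377 (R1 to R2). In synovium MMS D7 against MMS D3, 358 calls became 116 with the 2 groups alone and 186 without the 5 libraries that stand apart, which also gave 14, not 0, for R2 against R1. Centring turned 659 into 407 in synovium MMS D14 against MMS D7. The 2 groups alone gave 0 for cartilage R2 against Control and 467 for R1 against MMS D14.

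Without single libraries there were 147 to 597 calls for MMS D7 against MMS D3 and 375 to 701 for MMS D14 against MMS D7 in synovium. In cartilage there were, against Control, 126 to 206 in MMS D3, 197 to 327 in MMS D7, 502 to 714 in MMS D14, 536 to 799 in R1 and 0 to 17 in R2. Between groups there were 65 to 246 (MMS D3 to MMS D7), 3 to 444 (MMS D7 to MMS D14), 5 to 749 (MMS D14 to MMS D28), 117 to 170 (MMS D14 to R1), 345 to 440 (MMS D14 to R2) and 138 to 444 (R1 to R2).

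Centring moved the percent of calls that were higher in synovium from 26 to 36.9 (R1), 25.8 to 40.8 (R2), 39.7 to 62.9 (MMS D3 to MMS D7), 22.5 to 49.9 (MMS D7 to MMS D14) and 71 to 58.9 (MMS D14 to R1). In cartilage it went from 30.4 to 44.6 (MMS D7), 52 to 67 (R1), 16.6 to 44.2 (MMS D3 to MMS D7), 54.8 to 36.6 (MMS D7 to MMS D14) and 26.5 to 41.6 (MMS D14 to MMS D28).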
